A study of Sus scrofa with 2 samples.

Results

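The genes described here are the pig major histocompatibility complex (MHC) genes whose symbols start with SLA-, for swine leukocyte antigen. All such symbols in the deposited feature lists were taken, which gave 6 genes among 10753 feature rows with a symbol and 26881 feature rows in all. Of these, 2 belong to class I, SLA-6 (ENSSSCG00025077759) and SLA-8 (ENSSSCG00025077760). The other 4 belong to class II, SLA-DRA1 (ENSSSCG00025012171), SLA-DMA (ENSSSCG00025070163), SLA-DMB (ENSSSCG00025070484) and SLA-DOB (ENSSSCG00025072363). Each symbol stood on 1 feature row, and MHC genes of the pig that carry no such symbol were not analysed here.

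MHC molecules show peptides to T cells. Class I molecules are found on most nucleated cells and are read by CD8 T cells and NK cells, whereas class II molecules are made mainly by dendritic cells, macrophages and B cells, carry peptides from engulfed material and are read by CD4 T cells. Interferon gamma raises both classes, class II through the coactivator CIITA, and the trophoblast of the pig conceptus is known to secrete interferons. Blood vessel endothelium of pigs and humans is known to carry class II without stimulation, which mouse endothelium does not.

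The study took endometrium, the lining of the uterus, from 2 artificially inseminated Yorkshire sows aged 3 years, one at day 7 and one at day 13 of gestation, stages that the submitters name Pre-ER and ER, before and within endometrial receptivity. Tissue was digested to single cells and captured in droplets with the 10x 3' method, which counts distinct transcripts by unique molecular identifiers (UMIs). The 2 libraries are called library 2 and library 1 after the sample titles, because no sample label gives a gestation day. Each library stands for 1 sow, so the spread between animals is unknown, no test between libraries was possible, and day, animal and library cannot be told apart.

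Library 2 held 15093 barcodes with 87514969 UMIs and a median of 4335 UMIs per barcode, and library 1 held 10045 barcodes with 45388759 UMIs and a median of 3431. After filters and removal of called doublets, 12673 cells of library 2 and 8930 cells of library 1 were clustered without the SLA genes, and clusters were named from marker genes as "-like" types. Of 31 clusters, 27 drew over 90% of their cells from 1 library, so the libraries stood apart and most types were filled by different clusters in each. Stromal fibroblast-like cells were clusters led by NRG1 and RORB in library 2 and by ANPEP and CRABP1 in library 1. Smooth muscle- or pericyte-like cells were clusters led by CCL19 and ITIH4 in library 2 and by PCP4, MGP and SULT1E1 in library 1. Epithelial-like cells were clusters led by SHANK2, SAT1, SAL1, SLPI and UPTI in library 2 and by AQP3 in library 1. The clusters of other types are given with their results, and lymphatic and plasma-like cells were 1 cluster each in both libraries. The libraries shared 48 barcodes, 40 of them among kept cells. Levels are UMIs per 1000000 UMIs of the type (CPM). Intervals are 95% intervals and cover counting error only, since cells of 1 library share an animal and PCR, and droplets hold free RNA.

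SLA-DRA1 encodes the alpha chain of the class II molecule SLA-DR and marked 3 groups of cells. Its level was 13878 CPM in library 2 and 8757 CPM in library 1 in macrophage-, monocyte- or dendritic-like cells (521 cells in library 2 and 188 in library 1; macrophage-like below). It was 4828 CPM in the 126 B-like cells of library 2, and library 1 held only 7 such cells. In blood endothelial-like cells it was 3187 CPM in library 2 and 1334 CPM in library 1 (2555 cells in library 2 and 2558 in library 1). These 3 types stood above all other named types in each library that held at least 50 of their cells.

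Below them came T- or NK-like cells, with SLA-DRA1 at 630 CPM in library 2 and 481 CPM in library 1. Pig T cells, unlike mouse T cells, are known to carry SLA-DR. Lymphatic endothelial-like cells had 275 CPM in library 2, against 151 CPM in library 1. Smooth muscle- or pericyte-like cells had 190 CPM in library 2, against 124 CPM in library 1, and plasma-like cells 170 CPM in library 2 and 82.3 CPM in library 1. Lower still were epithelial-like cells, with 107 CPM in library 2 and 38.5 CPM in library 1, and stromal fibroblast-like cells, with 92.3 CPM in library 2 and 54.5 CPM in library 1. Ciliated-like cells, with 65.9 CPM, were lowest in library 2, and library 1 held only 36 of them. Intervals of neighbours in this order overlapped for smooth muscle- or pericyte-like and plasma-like cells in library 2, and for lymphatic endothelial-like and smooth muscle- or pericyte-like cells in library 1.

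**Figure D1:**
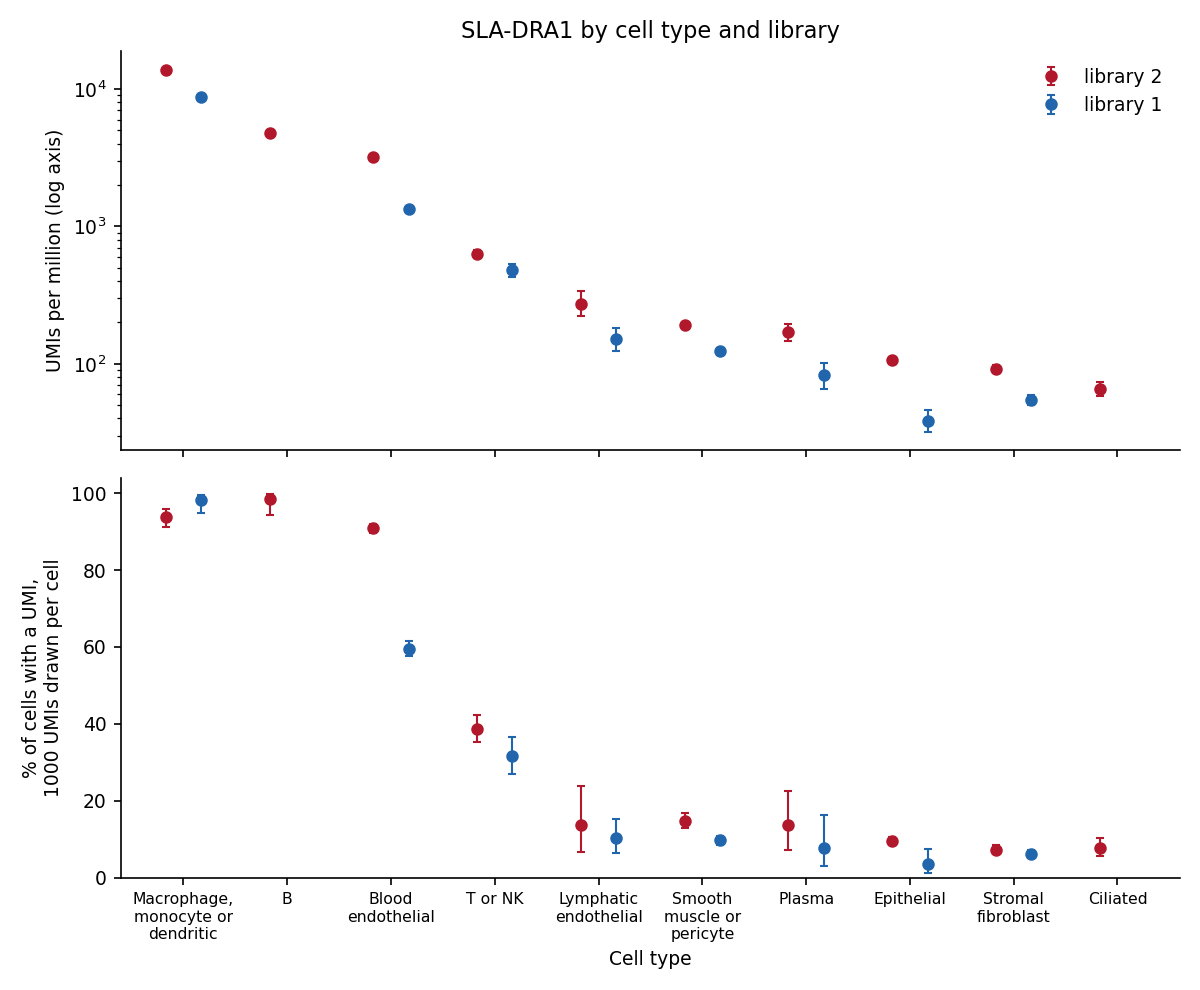
SLA-DRA1 by cell type, with library 2 left of library 1 in each type. The upper panel gives CPM on a log axis with exact Poisson 95% intervals, and the lower panel the percentage of cells with a UMI after 1000 UMIs were drawn from each cell, with exact binomial 95% intervals. In blood endothelial-like cells the lower panel shows 90.8% of cells in library 2 and 59.5% in library 1, above every type to the right of it.

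The count per cell shows how these levels were made up. Blood endothelial-like cells had a median of 13 SLA-DRA1 UMIs per cell in library 2 and 3 in library 1, and 98.2% (97.6 to 98.6) of cells in library 2 and 83.6% (82.1 to 85.0) in library 1 held at least 1. After thinning to 1000 UMIs per cell the shares were 90.8% in library 2 and 59.5% in library 1. SLA-DRA1 was thus found in most blood endothelial-like cells of both libraries.

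Stromal fibroblast-like cells, which are not known to make SLA-DR without stimulation, were taken as the reference. Whether they were stimulated here was not tested. There, 25.5% of cells in library 2 and 20.4% in library 1 held a UMI. After thinning, 7.20% did in library 2 and 6.04% in library 1. Median depth was 4485 UMIs per stromal cell in library 2 and 4365 in library 1, and 4306 UMIs per blood endothelial-like cell in library 2 and 3026.5 in library 1. Thinned shares in epithelial-like cells were 9.45% (8.52 to 10.4) in library 2 and 3.53% (1.31 to 7.52) in library 1. The share in library 2 lay above the stromal one, while the interval in library 1 held the stromal 6.04%. T- or NK-like cells stood clear of the stromal share, at 38.7% in library 2 and 31.6% in library 1.

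The share of SLA-DRA1 UMIs held by cells with at least 5 of them differed between types of low level. In epithelial-like cells of library 2, the 72 cells with at least 5 SLA-DRA1 UMIs were 1.67% of the type and held 39.4% of its SLA-DRA1 UMIs, with 93 UMIs in the highest cell. In library 1, 5 epithelial-like cells, 2.58% of the type, held 23.5%. In stromal fibroblast-like cells 28 such cells held 28.4% in library 2, and 1 cell held 1.48% in library 1. Smooth muscle- or pericyte-like cells with at least 5 UMIs were 3.47% of the type in library 2 and 1.49% in library 1.

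Genes that define macrophages were measured in the same cells. C1QA and C1QB, which encode chains of complement C1q, stood in blood endothelial-like cells at 0.362% and 0.281% of their macrophage-like level in library 2, and at 0.166% and 0.176% in library 1. SLA-DRA1 there stood at 23.0% of its macrophage-like level in library 2 and 15.2% in library 1. Over the whole macrophage list, 16 of 17 measured markers in library 2 and 14 of 17 in library 1 had a UMI in blood endothelial-like cells, summing to 95.01 CPM in library 2 and 121 CPM in library 1. They summed to 9872 CPM in library 2 and 15387 CPM in library 1 in macrophage-like cells. XCR1 was at 0 in both libraries, and FLT3 and CD209 also in library 1. Per macrophage marker UMI, blood endothelial-like cells held 33.5 SLA-DRA1 UMIs in library 2 and 11.0 in library 1, and macrophage-like cells 1.41 in library 2 and 0.569 in library 1.

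In stromal fibroblast-like cells SLA-DRA1 stood at 0.665% of its macrophage-like level in library 2 and 0.623% in library 1, while C1QA, C1QB, TYROBP and FCER1G, all genes of macrophages, ranged there between 0.216% and 0.957% in library 2 and between 0.215% and 0.507% in library 1. In epithelial-like cells SLA-DRA1 stood at 0.772% in library 2 and 0.440% in library 1, while the same 4 genes ranged between 0.283% and 0.542% in library 2 and between 0.0802% and 0.132% in library 1. SLA-DRA1 thus lay within the range of these 4 genes in stroma of library 2 and above it in the other 3 cases. The whole macrophage list gave another picture. Per marker UMI of that list, stromal fibroblast-like cells held 0.295 SLA-DRA1 UMIs in library 2 and 0.117 in library 1. Epithelial-like cells held 0.666 in library 2 and 1.06 in library 1. Macrophage-like cells held 1.41 in library 2 and 0.569 in library 1, so only epithelial-like cells of library 1 stood above them. Blood endothelial-like cells held more SLA-DRA1 UMIs than macrophage-like cells, 44070 against 29477 in library 2 and 13831 against 5929 in library 1. Blood endothelial markers summed to 239 and 276 CPM in the stromal clusters of library 2, and to 192 and 326 CPM in those of library 1. In blood endothelial-like clusters they summed to 6638 and 7250 CPM in library 2 and 6986 and 7794 CPM in library 1. The part of free macrophage or endothelial RNA in these low levels was not tested.

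**Figure D2:**
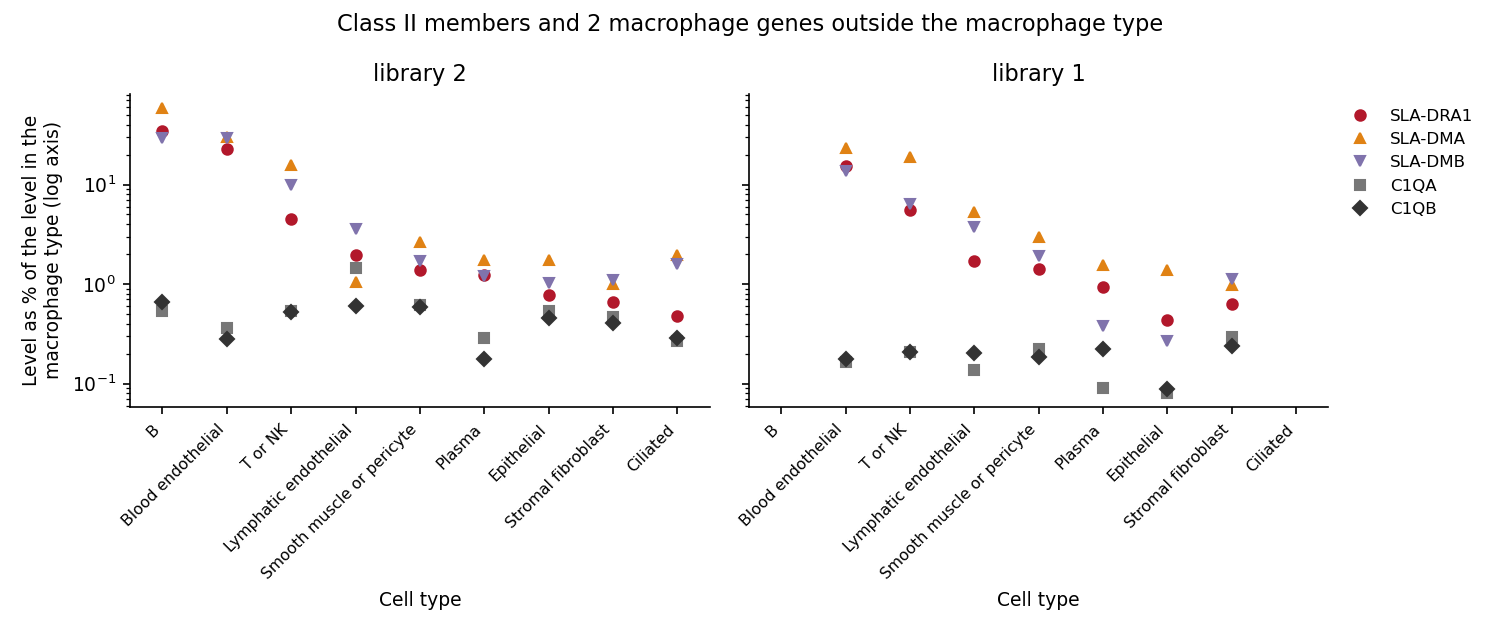
Level of 3 class II genes and of the macrophage genes C1QA and C1QB in each other cell type, as a percentage of the level in macrophage-like cells of the same library (log axis; library 2 left, library 1 right; B-like and ciliated-like cells of library 1 numbered under 50 and are not drawn). In blood endothelial-like cells SLA-DRA1 stands at 23.0% in library 2 and 15.2% in library 1, while C1QB stands at 0.281% in library 2 and 0.176% in library 1.

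Endothelium of blood vessels differed from that of lymphatics within each library. SLA-DRA1 was 11.6-fold (9.46 to 14.4) higher in blood than in lymphatic endothelial-like cells in library 2, and 8.84-fold (7.31 to 10.8) higher in library 1. For the class I genes summed the same ratio was 1.44-fold (1.23 to 1.69) in library 2 and 1.24-fold (1.11 to 1.40) in library 1. The step between the endothelia was thus larger in class II than in class I in both libraries. The lymphatic type held only 75 cells in library 2 and 210 in library 1.

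Blood endothelial-like cells formed a cluster led by CLEC3B and ACKR1, the second a gene of venules, and a cluster high in SEMA3G, a gene of arterial endothelium, in each library. The SEMA3G-high cells had 4013 CPM of SLA-DRA1 in library 2, against 1827 CPM in library 1. The ACKR1-high cells had 2769 CPM in library 2, against 1223 CPM in library 1. The SEMA3G-high cluster was 1.45-fold (1.42 to 1.48) above the ACKR1-high cluster in library 2 and 1.49-fold (1.44 to 1.55) in library 1. At resolution 2.0 further clusters led by other genes appeared, and the makeup of the pairs differed between libraries. In library 2, SLA-DRA1 was 4015 CPM in a CLDN5- and GJA5-led cluster that was high in SEMA3G, 3981 CPM in an FLT1-led cluster, 3327 CPM in a CLEC3B-led cluster that was high in PLVAP and 2510 CPM in an ACKR1-led cluster. In library 1, a PLVAP-led cluster that was high in FLT1 and KDR was highest with 2047 CPM, above a CLDN5- and SEMA3G-led cluster with 1704 CPM and an ACKR1-led cluster with 936 CPM. The ACKR1-led cluster was thus lowest in both libraries, while the highest one was led by different genes.

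Among macrophage-like cells, a cluster of 56 cells that occurred only in library 2 was high in FLT3, XCR1 and IRF8, genes of conventional dendritic cells. Its SLA-DRA1 level was 19772 CPM, with a UMI in 100% of cells, against 12648 CPM in the C1QA- and C1QB-led cluster of the same library, a 1.56-fold (1.52 to 1.61) difference. SLA-DRA1 was itself among the 10 leading genes of that cluster, although it was left out of the clustering. SLA-DMA was 1.82-fold and SLA-DOB 2.32-fold higher there than in the C1q-led cluster.

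T- or NK-like cells of library 2 also split. A cluster led by SKAP1 and CXCR4 had 757 CPM of SLA-DRA1, and a cluster led by CCL5, KLRK1 and the NK receptor gene NCR1 had 380 CPM. The single main cluster of library 1, led by CCL5, had 479 CPM. Macrophage markers, some of which NK cells share, summed to 1750 CPM in the SKAP1 cluster and 2456 CPM in the NCR1 cluster of library 2, and to 1983 CPM in library 1. Over the whole type, C1QA and C1QB stood at 0.532% and 0.525% of their macrophage-like level in library 2, and at 0.210% and 0.207% in library 1. FCER1G stood at 33.8% and TYROBP at 8.78% in library 2, and at 12.2% and 4.76% in library 1. SLA-DRA1 stood at 4.54% in library 2 and 5.49% in library 1. The part of macrophage RNA in SLA-DRA1 here was not tested.

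SLA-DMA and SLA-DMB encode the chains of DM, which loads peptides onto class II molecules in endosomes. SLA-DMA was 566 CPM in library 2 and 484 CPM in library 1 in macrophage-like cells, and 170 CPM in library 2 and 113 CPM in library 1 in blood endothelial-like cells. SLA-DMB was 673 CPM in library 2 and 499 CPM in library 1 in macrophage-like cells, and 199 CPM in library 2 and 69.0 CPM in library 1 in blood endothelial-like cells. In B-like cells of library 2 SLA-DMA was 335 CPM and SLA-DMB 195 CPM, so in library 2 both genes were highest in the same 3 types as SLA-DRA1. T- or NK-like cells had 89.6 CPM of SLA-DMA and 65.9 CPM of SLA-DMB in library 2, and 91.9 and 32.1 CPM in library 1. For SLA-DMA in library 1 their interval (70.6 to 118) overlapped that of blood endothelial-like cells (107 to 120).

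Plasma-like cells, the antibody-secreting stage that follows the B cell, had far less of the same genes. In library 2, SLA-DRA1 was 28.4-fold (24.4 to 33.2), SLA-DMA 34.2-fold (18.3 to 70.6) and SLA-DMB 24.4-fold higher in B-like than in plasma-like cells. The class I level in CPM was 5.01-fold (4.03 to 6.24) higher in B-like cells. Median depth was 11421 UMIs per plasma-like cell and 2052.5 per B-like cell, so these folds hold per UMI and not per cell. Per cell, the median class I count was 1 UMI in both types. For SLA-DRA1 it was 11 UMIs in B-like and 1 UMI in plasma-like cells. Plasma cells are known to shut down class II.

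SLA-DOB encodes the beta chain of DO, which in human and mouse inhibits DM and is found mainly in B cells and some dendritic cells. It was 361 CPM (297 to 436) in B-like cells of library 2, its highest level among named types there, and 333 CPM in the FLT3-high cluster. In macrophage-like cells it was 176 CPM in library 2 and 97.5 CPM in library 1, and in blood endothelial-like cells 107 CPM in library 2 and 86.7 CPM in library 1. Against blood endothelial-like cells of library 2, B-like cells had 3.38-fold (2.76 to 4.11) more SLA-DOB but a close SLA-DMB level, at 0.985-fold (0.748 to 1.27).

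The amount of SLA-DOB relative to SLA-DRA1 varied between types. Per 1000 SLA-DRA1 UMIs there were 12.7 SLA-DOB UMIs in library 2 and 11.1 in library 1 in macrophage-like cells, and 74.8 in B-like cells of library 2. Blood endothelial-like cells had 33.5 in library 2 and 65.0 in library 1, and stromal fibroblast-like cells 347 in library 2 and 451 in library 1. SLA-DOB was counted in stroma at 32.0 CPM in library 2 and 24.6 CPM in library 1. In the RefSeq annotation of Sscrofa11.1, which may not be the build of the files, SLA-DOB lies beside TAP2, a peptide transporter gene that was not analysed here. Whether reads of a neighbouring gene entered the SLA-DOB count was not tested.

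The class I genes SLA-6 and SLA-8 are usually grouped as non-classical (class Ib), and their sequence is close to that of other pig class I genes, so reads of these relatives may have been split or lost in counting and the levels are uncertain. SLA-6 was highest in T- or NK-like cells, at 728 CPM in library 2 and 491 CPM in library 1. Blood endothelial-like cells followed with 452 CPM in library 2 and 341 CPM in library 1, next to B-like cells of library 2 with 467 CPM. Macrophage-like cells had 343 CPM in library 2, against 270 CPM in library 1. The lowest level was that of plasma-like cells, 72.2 CPM in library 2 and 43.0 CPM in library 1.

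SLA-8 was likewise highest in T- or NK-like cells, at 305 CPM in library 2 and 313 CPM in library 1. It was 221 CPM in library 2 and 209 CPM in library 1 in blood endothelial-like cells, and 177 CPM in library 2 and 211 CPM in library 1 in macrophage-like cells. Epithelial-like cells had 55.1 CPM in library 2, against 46.9 CPM in library 1. Among the types compared, both class I genes were thus lowest in CPM in plasma- or epithelial-like cells and highest in T- or NK-like cells. Depth differed between these types, with a median of 11421 UMIs per plasma-like and 1667 per T- or NK-like cell in library 2.

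**Figure D3:**
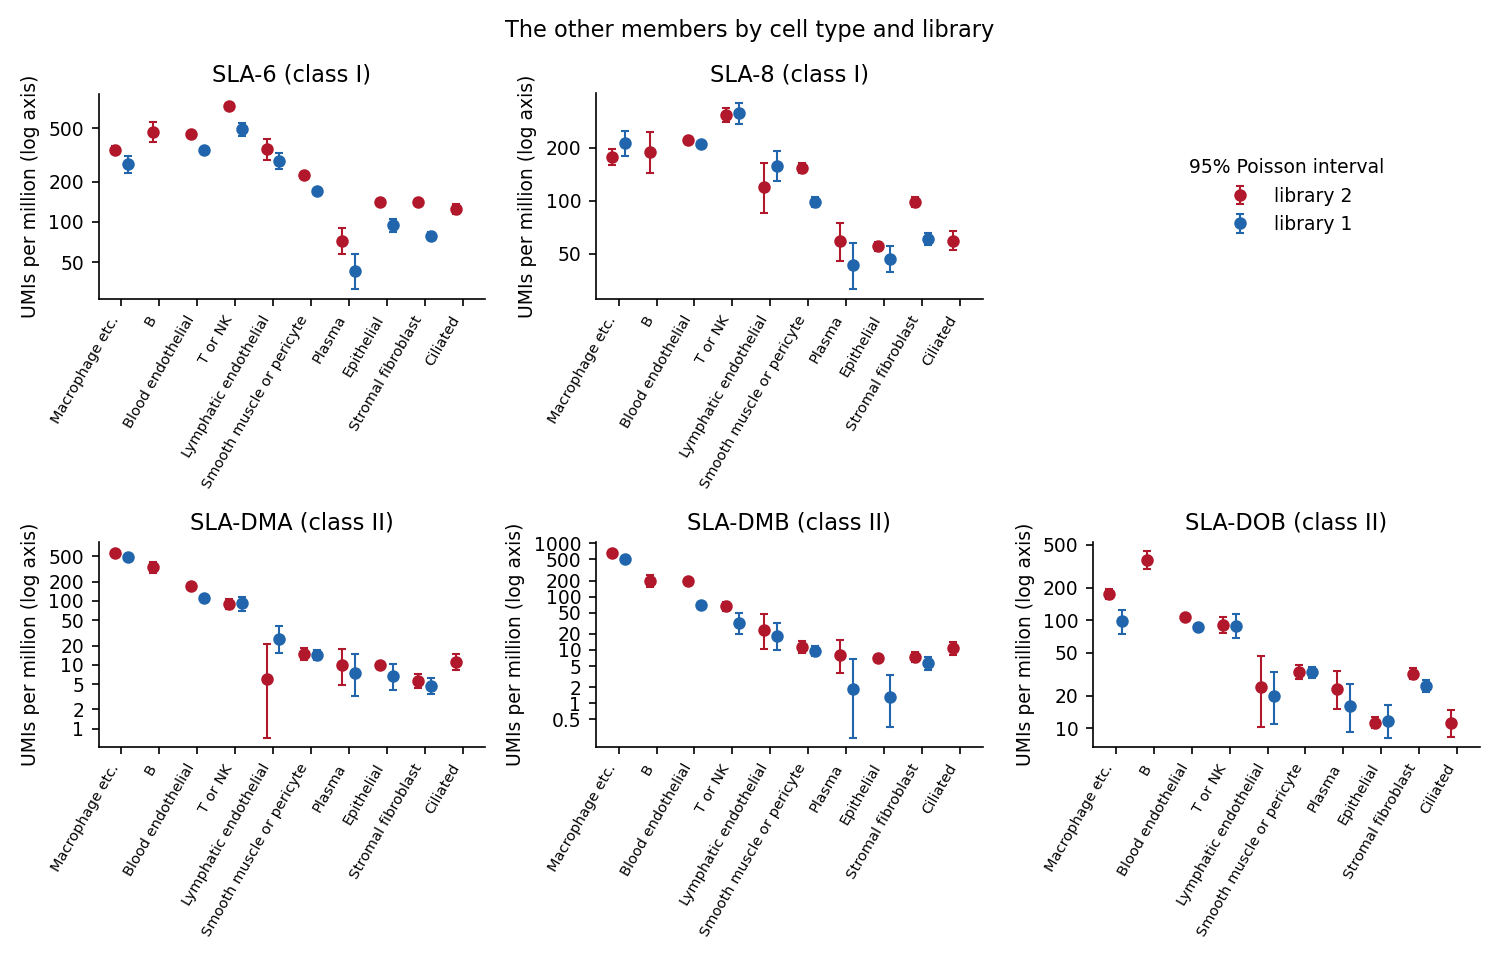
Levels of the other 5 members in CPM (log axes, which differ between panels), with library 2 left of library 1 and exact Poisson 95% intervals; "Macrophage etc." stands for macrophage-, monocyte- or dendritic-like cells. SLA-6 and SLA-8 peak in T- or NK-like cells, SLA-DMA and SLA-DMB in macrophage-like cells, and SLA-DOB in B-like cells of library 2.

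The ratio of class I UMIs (2 genes) to class II UMIs (4 genes) summarises this contrast. It is a ratio of counted molecules of these 6 genes only, comparable between types but not a ratio of whole classes. It was 0.0340 in library 2 and 0.0489 in library 1 in macrophage-like cells, 0.115 in B-like cells of library 2, and 0.184 in library 2 and 0.343 in library 1 in blood endothelial-like cells. In plasma-like cells it was 0.620 (0.50 to 0.77) in library 2 and 0.80 (0.60 to 1.06) in library 1. Class II UMIs were thus the more numerous in these 4 types, with an interval that holds 1 for plasma-like cells of library 1.

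T- or NK-like cells lay near an even count, with 1.18 in library 2 and 1.16 in library 1. Stromal fibroblast-like cells had 1.75 in library 2 and 1.56 in library 1, smooth muscle- or pericyte-like cells 1.51 in library 2 and 1.49 in library 1, and lymphatic endothelial-like cells 1.43 in library 2 and 2.06 in library 1. In epithelial-like cells the ratio was 1.44 in library 2 and 2.42 in library 1. Class I UMIs outnumbered class II UMIs in all of these.

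The ratio was lower in library 2 than in library 1 in blood endothelial-like cells, with a log2 change of -0.90 (-0.95 to -0.85). It was also lower in epithelial-like cells, by -0.75 (-1.02 to -0.48), and in macrophage-like cells, by -0.52 (-0.71 to -0.34). In smooth muscle- or pericyte-like cells the change was 0.02 (-0.11 to 0.16) and in T- or NK-like cells 0.02 (-0.19 to 0.23), both with intervals that hold 0. It was -0.53 (-0.996 to -0.061) in lymphatic endothelial-like cells and -0.37 (-0.88 to 0.15) in plasma-like cells. In stromal fibroblast-like cells the ratio was higher in library 2, by 0.17 (0.01 to 0.32).

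**Figure D4:**
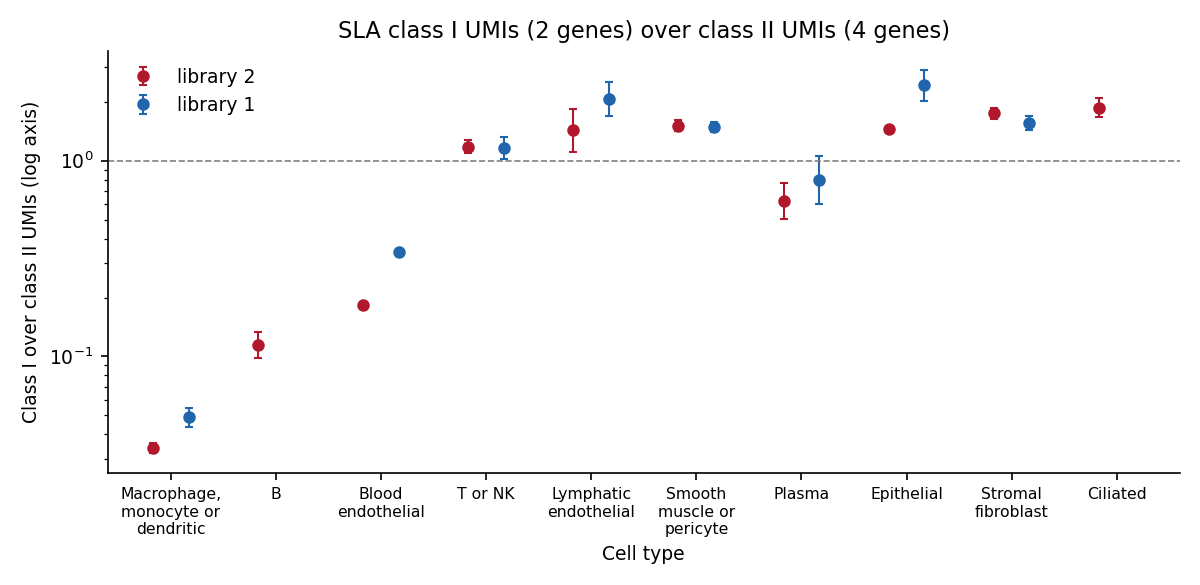
Class I UMIs (SLA-6 and SLA-8) over class II UMIs (SLA-DRA1, SLA-DMA, SLA-DMB and SLA-DOB) in each cell type on a log axis, with library 2 left of library 1, 95% counting intervals and a dashed line at a ratio of 1. Blood endothelial-like cells stand at 0.184 in library 2 and 0.343 in library 1, both below the line.

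Between the libraries, blood endothelial-like cells gave the class II difference that rests on the most UMIs. SLA-DRA1 was 3187 CPM in library 2 and 1334 CPM in library 1 (log2 ratio 1.26, interval 1.23 to 1.28), and SLA-DMB 199 CPM in library 2 and 69.0 CPM in library 1 (log2 ratio 1.52, interval 1.40 to 1.64). SLA-DMA, its partner chain, had a smaller ratio of 0.59 (0.49 to 0.70), and SLA-DOB one of 0.30 (0.18 to 0.42). Class I differed less, with 0.41 (0.35 to 0.47) for SLA-6 and 0.08 (0.00422 to 0.16) for SLA-8.

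So 2 of 6 members were at least 2-fold higher in library 2 in this type, against 22.4% of all genes measured there, and 0 were at least 2-fold lower, against 11.7%. The median log2 ratio of all genes was -0.07. A 2-fold difference was thus common among all genes, and 2 of 6 is near that background. The type was held by different clusters in each library. Between the clusters that share a leading gene, SLA-DRA1 had a log2 ratio of 1.18 (1.15 to 1.21) in ACKR1-high cells and 1.14 (1.08 to 1.19) in SEMA3G-high cells, though these pairs are not alike in makeup, as the finer resolution showed. Cells without a single macrophage or B cell marker UMI, 179 in library 2 and 1099 in library 1, had 3225 CPM in library 2, against 1298 CPM in library 1, close to the levels over all cells of the type. EBF1, counted among the B cell markers, was 1438 CPM in library 2 and 162 CPM in library 1 in blood endothelial-like cells. All B cell markers summed there to 1451 CPM in library 2 and 166 CPM in library 1. The filter thus acted largely on EBF1 in library 2, and it kept 7.01% of cells in library 2 and 43.0% in library 1.

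In macrophage-like cells 0 of 6 members were at least 2-fold higher in library 2, against 18.1% of all genes, and 0 lower, against 14.7%. SLA-DRA1 had a log2 ratio of 0.66 (0.62 to 0.70), which was 0.53 (0.49 to 0.57) in the C1q-led cluster that both libraries shared and 0.43 with called doublets kept. SLA-DOB had 0.85 (0.47 to 1.25), SLA-DMB 0.43 (0.26 to 0.61), SLA-DMA 0.23 (0.05 to 0.41), SLA-6 0.34 (0.11 to 0.58) and SLA-8 -0.25 (-0.53 to 0.04). The macrophage markers themselves summed to 9872 CPM in library 2 and 15387 CPM in library 1, so their level moved the other way, and the part of cell makeup in these ratios was not tested.

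In T- or NK-like cells 1 of 6 members, SLA-DMB, was at least 2-fold higher in library 2, against 22.4% of all genes, and 0 were lower, against 9.09%. SLA-DMB was 65.9 CPM in library 2 and 32.1 CPM in library 1, on 100 and 22 UMIs. SLA-DRA1 had a log2 ratio of 0.39 (0.21 to 0.57) and SLA-6 one of 0.57 (0.39 to 0.75), while SLA-8, SLA-DMA and SLA-DOB lay within 0.04 of 0, with intervals that hold 0. The SLA-DRA1 ratio was 0.86 with called doublets kept and 0.12 in cells without macrophage and B cell marker UMIs, so its size is uncertain.

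In epithelial-like cells 2 of 6 members, SLA-DRA1 and SLA-DMB, were at least 2-fold higher in library 2, against 23.4% of all genes, and 0 were lower, against 23.5%. SLA-DRA1 had a log2 ratio of 1.48 (1.21 to 1.76) on 2491 UMIs in library 2 and 115 in library 1. SLA-DMB had one of 2.38 (1.00 to 4.27) on 162 UMIs in library 2 and 4 in library 1. After thinning, SLA-DMB stood at 5.49 CPM in library 2 and 0 CPM in library 1. Its thinned ratio of -1.68 comes from the floor of 3 UMIs set for library 1, so it shows no turn of direction. Only 194 epithelial-like cells of library 1 remained, against 4320 of library 2. With called doublets kept, the SLA-DRA1 ratio came to 0.13. Macrophage markers summed to 161 CPM in epithelial-like cells of library 2 and 36.5 CPM in those of library 1, and their part in the ratio was not tested.

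The other types gave fewer counts or smaller ratios. Plasma-like cells had 2 of 6 members at least 2-fold higher in library 2, against 26.8% of all genes: SLA-DRA1 at a log2 ratio of 1.05 (0.68 to 1.43), and SLA-DMB on 9 UMIs in library 2 and 2 in library 1, with a ratio of -0.19 after thinning. There 0 were lower, against 9.89%. Stromal fibroblast-like cells had 0 of 6 higher, against 27.9%, and 0 lower, against 13.1%. Smooth muscle- or pericyte-like cells had 0 of 6 higher, against 21.7%, and 0 lower, against 10.7%. In stromal fibroblast-like cells the ratios were 0.84 (0.72 to 0.97) for SLA-6, 0.76 (0.60 to 0.91) for SLA-DRA1 and 0.70 (0.55 to 0.85) for SLA-8. Lymphatic endothelial-like cells had 0 of 6 higher, against 20.3%, and 1 of 6 lower, SLA-DMA on 2 UMIs in library 2 and 18 in library 1, against 12.5%, and its ratio was 0.00985 after thinning.

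**Figure D5:**
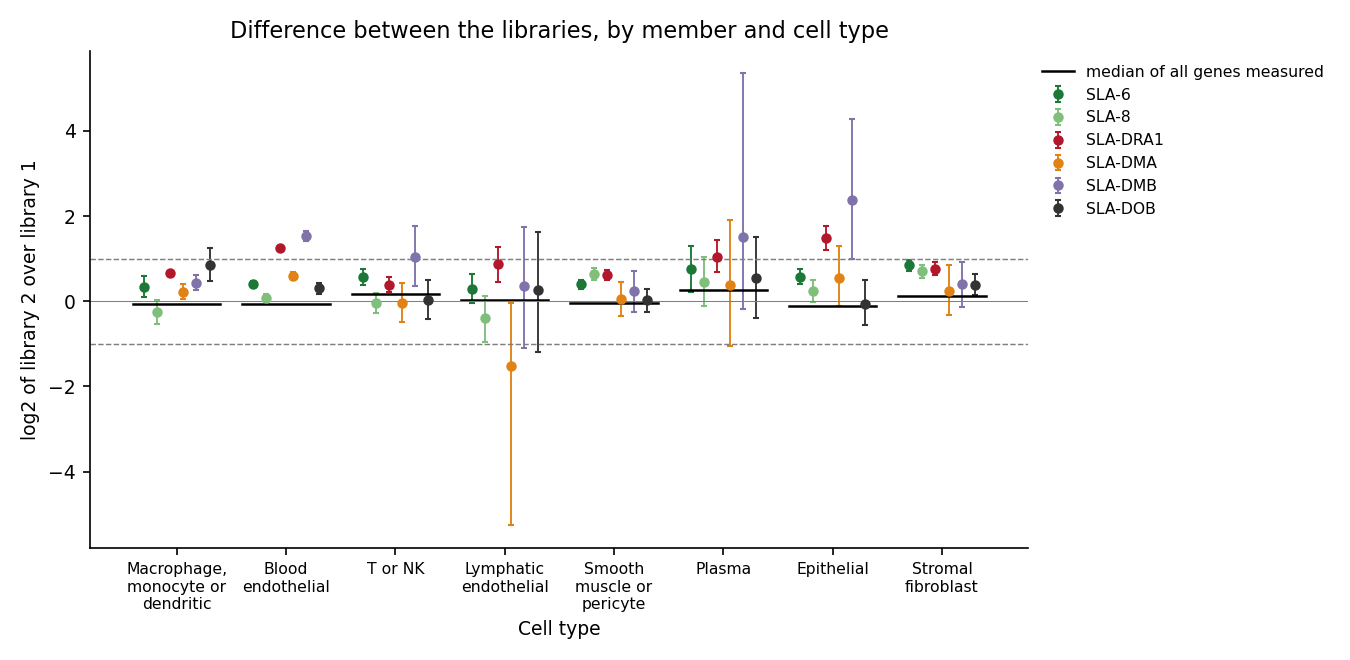
Log2 ratio of library 2 over library 1 for each member in each cell type compared, with exact 95% counting intervals; counts under 3 were set to 3. The black line in each type is the median of all genes measured there and the dashed lines mark 2-fold. In blood endothelial-like cells SLA-DRA1 at 1.26 and SLA-DMB at 1.52 stand above the upper dashed line with narrow intervals, and the class I genes stay below 0.5.

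Genes of the wider pathway were counted from fixed lists. Of 11 measured class II presentation genes, 1 was at least 2-fold higher in library 2 in blood endothelial-like cells and 0 were lower, against 22.4% and 11.7% of all genes, with a median log2 ratio of -0.18. The one was IFI30, a lysosomal thiol reductase of antigen processing, at 53.6 CPM in library 2 and 25.6 CPM in library 1. The class II protease genes CTSS, CTSL, CTSD, CTSB and LGMN had log2 ratios from -0.84 to -0.01. In macrophage-like cells 2 of 11 were higher, LGMN at 533 CPM in library 2 and 239 CPM in library 1 and CTSL at 126 CPM in library 2 and 56.1 CPM in library 1, and 1 was lower, against 18.1% and 14.7% of all genes. CTSS, the main protease acting on the class II invariant chain, was 1140 CPM in library 2 and 1636 CPM in library 1 there.

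Of 13 measured class I presentation genes, 0 were at least 2-fold higher and 2 were lower in blood endothelial-like cells, against the same 22.4% and 11.7%, with a median log2 ratio of -0.35. The lower ones were the chaperone gene CANX, at 132 CPM in library 2 and 345 CPM in library 1, and the translocon gene SEC61B, at 107 CPM in library 2 and 249 CPM in library 1. TAP1, which carries peptides to class I, was 364 CPM in library 2 and 296 CPM in library 1. Of the other genes named from this list, the log2 ratios were -0.15 for the proteasome activator gene PSME1, -0.59 for the chaperone gene HSPA5 and -0.91 for the chaperone gene CALR.

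Genes of interferon gamma signalling differed more in blood endothelial-like cells. There, 7 of 17 were at least 2-fold higher in library 2 and 0 were lower, against 22.4% and 11.7% of all genes. Their median log2 ratio was 0.90, against -0.07 for all genes. IRF1, a transcription factor induced by interferon, was 817 CPM in library 2 and 181 CPM in library 1, and the guanylate-binding protein gene GBP1 was 790 CPM in library 2 and 225 CPM in library 1. IRF8, a related transcription factor, was 61.0 CPM in library 2 and 25.1 CPM in library 1. CXCL10, an interferon-induced chemokine, was 139 CPM in library 2 and 101 CPM in library 1 (log2 ratio 0.47), and the kinase gene JAK1 had a log2 ratio of 0.18.

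The same list had 9 of 16 genes at least 2-fold higher and 1 lower in stromal fibroblast-like cells, against 27.9% and 13.1% of all genes, with a median log2 ratio of 1.25. In smooth muscle- or pericyte-like cells 8 of 15 were higher and 1 lower, against 21.7% and 10.7%, also with a median of 1.25. The medians over all genes were 0.12 in stromal fibroblast-like and -0.05 in smooth muscle- or pericyte-like cells. T- or NK-like cells were mixed, with 4 of 15 higher and 4 lower, against 22.4% and 9.09%. Macrophage-like cells had 6 of 16 higher and 2 lower, against 18.1% and 14.7%. Epithelial-like cells had 8 of 16 higher and 1 lower, against 23.4% and 23.5%. Lymphatic endothelial-like cells had 6 of 14 higher and 0 lower, against 20.3% and 12.5%. Plasma-like cells had 8 of 14 higher and 0 lower, against 26.8% and 9.89%. In stromal fibroblast-like cells IRF1 was 475 CPM in library 2 and 37.9 CPM in library 1. SLA-DRA1 was 92.3 CPM in library 2 and 54.5 CPM in library 1 in stroma (log2 ratio 0.76, interval 0.60 to 0.91). In smooth muscle- or pericyte-like cells it was 190 CPM in library 2 and 124 CPM in library 1 (log2 ratio 0.62, interval 0.50 to 0.74). In T- or NK-like cells of library 2 IRF1 was 369 CPM and SLA-DRA1 630 CPM. Whether the levels of these genes are linked was not tested. IFNG itself, named after its values were seen and expressed in T- or NK-like cells, was 103 CPM in library 2 and 303 CPM in library 1 there (log2 ratio -1.56, interval -1.87 to -1.25).

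Costimulatory and adhesion genes gave 3 of 8 at least 2-fold higher and 0 lower in blood endothelial-like cells, against 22.4% and 11.7% of all genes. ICAM1, which binds the integrin LFA-1 of leukocytes, was 490 CPM in library 2 and 121 CPM in library 1, and CD40 was 80.0 CPM in library 2 and 30.9 CPM in library 1. CD86, a ligand of CD28, was 15.0 CPM in library 2 and 27.1 CPM in library 1 in blood endothelial-like cells, but 418 CPM in library 2 and 78.3 CPM in library 1 in macrophage-like cells, where 3 of 8 were higher and 1 lower, against 18.1% and 14.7%. The lower one was LGALS9, which encodes galectin-9, at 129 CPM in library 2 and 263 CPM in library 1. CD48 and VSIR stayed within 2-fold in both types.

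The receptors that read MHC molecules were followed in T- or NK-like cells, where 2 of 5 were at least 2-fold higher and 2 lower, against 22.4% and 9.09% of all genes. KLRK1, which encodes the receptor NKG2D for class I-like ligands, was 1908 CPM in library 2 and 774 CPM in library 1. CD8A, a chain of the class I coreceptor, was 139 CPM in library 2 and 284 CPM in library 1. CD247, the signalling chain of the T cell receptor, was 319 CPM in library 2 and 268 CPM in library 1. KLRK1 and CD247 also served as markers that named the type.

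The genes most like SLA-DRA1 were ranked by the correlation of log2 levels across cell types, 10 types in library 2 and 8 in library 1, taking the lower of the pair of values, among 2248 genes. The nearest were SLA-DMB at 0.977 and SLA-DMA at 0.972. PHACTR1 at 0.900, IRF8 at 0.894, the class II protease gene CTSS at 0.890 and BAZ1A at 0.880 followed, then FCHSD2 at 0.871, STX11 at 0.862, TWF2 at 0.852 and AKIRIN2 at 0.845. The class I genes ranked below these, SLA-8 at rank 72 with 0.691 and SLA-6 at rank 119 with 0.640, still high among the 2248. SLA-DOB, too low in library 1 to be ranked, had 0.912 in library 2 and 0.883 in library 1. The types of 1 library share its depth and free RNA, so these values are descriptions.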

How the data were processed

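Each deposited matrix gives UMI counts by gene and barcode, not normalized by the authors. Its maker was Cell Ranger, as version 6.1.0 per the file headers but 2.1.1 per the submitters' processing notes. Build and treatment of intron reads: not given in the sources used here. Gene symbols came from the deposited feature lists. Groups came from the sample titles; the deposited matrices also carry the study's names for its 2 stages, which were not used.

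A floor of 500 UMIs and 200 genes per barcode removed 1 barcode in library 2 and 5 in library 1. Scrublet calls were then removed, 2419 (16.0%) in library 2 and 1110 (11.1%) in library 1. Clustering in scanpy 1.11.5 (Python 3.11.15) used 2000 variable genes without the SLA and presentation genes, 30 components, 15 neighbours and Leiden at resolution 1.0 (igraph 0.11.9, seed 1), with no integration. A cluster was named from at least 3 markers with a mean log2 fold of at least 0.5 (pseudocount 20 CPM) and a margin of 0.25 over the next type, and of 31 clusters 29 were named. This scoring rule was chosen after the data were seen. Cells left unnamed were 0.568% of library 2 and 1.66% of library 1. Names were rebuilt here, and a difference from the study may come from that.

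UMIs were summed per type and library. CPM has exact Poisson intervals, log2 ratios exact conditional binomial intervals with a floor of 3 UMIs per library, and shares exact Clopper-Pearson intervals (scipy 1.17.1). Types with at least 50 cells in both libraries were compared, 8 in all, over genes with at least 10 UMIs in the pair. There was no test. The interval and naming steps were tested on simulated data. All SLA symbols were named, and of each list up to 6 members with at least 100 CPM in a type, highest first. Of 78 list genes, 54 had a symbol. The values of 1 gene that this rule names are not reported here. Members and lists were chosen with earlier results of these data known. In all 10 alternatives were run, TMM scaling with edgeR 4.0.16 (R 4.3.3) among them.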

Additional observations from a re-analysis of the deposited data

How the results depend on the processing

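No paired analysis was possible because each group is 1 library. The order of SLA-DRA1 levels rests on many UMIs, whereas SLA-DMA, SLA-DMB and SLA-DOB outside macrophage-, B- and blood endothelial-like cells rest on few and depth limits them. Of 48 member ratios, 45 kept their sign and 48 their side of 2-fold with at least 1000 UMIs and 500 genes per cell, 41 and 39 with called doublets kept, 48 and 47 with SLA and presentation genes in the clustering, 48 and 48 at resolution 2.0, 47 and 46 under TMM scaling, 46 and 46 with cells weighted equally, and 38 and 41 after thinning to 1000 UMIs per cell. Without macrophage and B cell marker UMIs the counts were 18 and 20 of 24. In blood endothelial-like cells of library 2 this setting acted largely on EBF1. The SLA-DRA1 log2 ratio in blood endothelial-like cells, 1.26 as reported, was 1.38 under TMM scaling, 1.32 with cells weighted equally, 1.35 thinned and 1.31 in cells without those markers. In macrophage-like cells, 0.66 as reported, it was 0.43 with doublets kept, 0.86 under TMM scaling, 0.57 with cells weighted equally, 0.53 thinned and 0.53 without the FLT3-high cluster, an alternative chosen after the data were seen. In T- or NK-like cells, 0.39 as reported, it was 0.86 with doublets kept and 0.12 in cells without those markers. Some of those markers are shared by NK cells. In epithelial-like cells, 1.48 as reported, it was 1.08 with the stricter cell filter, 0.13 with doublets kept, 1.14 with SLA genes in the clustering and 1.12 in cells without those markers, and 1.40 without the low-UMI cluster, also chosen after the data were seen. The log2 of class I over class II in blood endothelial-like cells, -2.44 in library 2 and -1.54 in library 1 as reported, came in library 2 to -2.40 with doublets kept, -2.39 with cells weighted equally, -2.39 thinned and -2.34 in cells without those markers, and in library 1 to -1.48, -1.43, -1.36 and -1.47 under the same settings. Among ratios past 2-fold as reported, signs turned after thinning for SLA-DMB in epithelial-like cells (-1.68) and plasma-like cells (-0.19) and for SLA-DMA in lymphatic endothelial-like cells (0.00985). Each rests on few UMIs in library 1 or library 2, with a thinned count under the floor of 3 UMIs. These turns come from that floor and show no change of direction. The shift of all log2 ratios under TMM scaling was 0.23 for epithelial-like, 0.20 for macrophage-like, 0.12 for blood endothelial-like, -0.11 for lymphatic endothelial-like and -0.23 for plasma-like cells. The cause of the other moves was not tested.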

Other observations

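A cluster led by genes of dividing cells, such as CENPF, UBE2C and TPX2, was left unnamed and drew 72 cells from library 2 and 92 from library 1. Its SLA-DRA1 level was 2949 CPM in library 2 and 2074 CPM in library 1, and 94.4% of its cells in library 2 and 95.7% in library 1 held a UMI. Blood endothelial markers in it summed to 5003 CPM in library 2 and 6377 CPM in library 1, against 6638 and 7250 CPM in the blood endothelial-like clusters of library 2 and 6986 and 7794 CPM in those of library 1. Macrophage markers summed to 80.03 CPM in library 2 and 217 CPM in library 1. SLA-DRA1 was thus detected in dividing cells that carried endothelial markers.

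Smooth muscle- or pericyte-like cells were not uniform at the finer resolution. A cluster led by RGS5, a pericyte gene, had 349 CPM of SLA-DRA1 in library 2 (568 cells) and 280 CPM in library 1 (741 cells). The other clusters of the type had 77.4 and 120 CPM in library 2, and 59.8 to 84.4 CPM in library 1. Cells with at least 5 SLA-DRA1 UMIs were 6.34% of the RGS5-led cluster in library 2 and 4.05% in library 1. Blood endothelial markers in it summed to 374 CPM in library 2, against 403 and 411 CPM in the other clusters of library 2, and to 359 CPM in library 1, against 202, 231 and 541 CPM in the others. Macrophage markers summed to 188 CPM in library 2, against 111 and 112 CPM, and to 182 CPM in library 1, against 129 to 201 CPM. The part of RNA from these cell types in the SLA-DRA1 level was not tested.

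PSMB8, an immunoproteasome gene that lies near SLA-DOB in the RefSeq annotation of Sscrofa11.1, had 67 UMIs in library 2 and 35 in library 1, whereas PSMB9, the other immunoproteasome gene of the MHC, had 9821 UMIs in library 2 and 3727 in library 1.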
